A study of Mus musculus with 3 samples.

Results

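The genes examined here were the histone genes of mouse back skin. Every row of the deposited expression table whose symbol begins with Hist1h, Hist2h, Hist3h, H1f, H2af or H3f was taken, which gave 73 of 19165 rows. Of these, 62 carry the Hist prefix and were treated as replication-dependent histone genes, 10 carry an H1f, H2af or H3f symbol and were treated as replacement histone genes, and 1, H3f3aos, is an antisense transcript. All 73 rows held at least 1 UMI (a unique molecular identifier, the count of 1 captured RNA molecule) in each library.

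The study followed hair follicle formation in the dorsal skin of male C57BL/6 mice by droplet single-cell RNA sequencing. There were 3 groups, each of them wild-type skin and each of them 1 library made from pooled animals: E13.5 fetuses, E16.5 fetuses and newborn P0 mice. Fetal skin was dissociated briefly with trypsin and EDTA, whereas P0 skin was digested for longer with collagenase IV. Stage and library therefore cannot be told apart, and at P0 neither can the dissociation enzyme. No difference below has a replicate check. Values are given with 95% intervals that cover counting error only (exact Poisson for a level, conditional binomial for a ratio).

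Histone proteins package DNA, and their genes fall into 2 broad classes. Replication-dependent genes lie mostly in large clusters, are transcribed in S phase when new DNA must be packaged, and end their mRNAs in a short stem-loop in place of a poly(A) tail. Replacement genes are scattered, are transcribed throughout the cell cycle and in resting cells, carry introns or ordinary poly(A) tails, and supply variants such as H3.3 and H2A.Z. In developing skin, dividing dermal and epidermal progenitors give way to differentiating fibroblasts and keratinocytes. Mki67 encodes the Ki-67 protein of cycling cells and was used to split the cells, though a cell without a Mki67 UMI may be in cycle too. The libraries were primed on poly(A), so counts of the Hist rows come from transcripts that were polyadenylated or were primed at internal A-rich stretches, and a changed level cannot be told apart from a changed share of such transcripts.

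The stem-loops are shown because they are what separates the first class from the second. In the gene models of GENCODE vM21 (GRCm38), 60 of the 62 Hist rows were matched by symbol, 50 of them on chromosome 13, 8 on chromosome 3 and 2 on chromosome 11, and 59 were annotated as protein coding. A hairpin of 16 letters, with a stem of 6 bases that opens with GG and a loop of 4 bases, was found in the transcripts of 43 of the 60, of 1 of the 10 replacement genes (H2afx) and of 0.374% of all annotated genes. Several Hist models without it were short, such as Hist1h4k with 312 bases and Hist1h2bl with 381. Such a model may stop before the stem-loop, so a missing hairpin does not mean that the gene lacks it. The hairpins of 7 genes whose values recur below are printed in transcript orientation with up to 5 bases on either side, and capitals mark the hairpin.
Hist1h2ap, chr13:21833026-21833049, minus strand: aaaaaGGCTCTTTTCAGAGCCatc
Hist1h1e, chr13:23621777-23621802, minus strand: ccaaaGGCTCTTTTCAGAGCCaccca
Hist1h1c, chr13:23739507-23739532, plus strand: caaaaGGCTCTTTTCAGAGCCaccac
Hist1h4d, chr13:23581945-23581970, plus strand: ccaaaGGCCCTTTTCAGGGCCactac
Hist2h2ac, chr3:96220413-96220438, minus strand: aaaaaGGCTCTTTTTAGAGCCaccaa
Hist3h2ba, chr11:58949344-58949369, plus strand: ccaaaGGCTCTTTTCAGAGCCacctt
H2afx, chr9:44335235-44335260, plus strand: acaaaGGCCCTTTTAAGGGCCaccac

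The model of Hist1h2ap, the row with the most counts among the Hist rows, ended 3 bases after its hairpin, whereas that of Hist1h1e ran on for 1153 bases, that of Hist1h1c for 840 and that of Hist1h4d for 770. In all, 21 of the 60 models ran more than 100 bases past the hairpin, and 13 of the 60 held a poly(A) signal in their last 40 bases, against 9 of the 10 replacement genes. Near-identical copies were common: 22 of the 60 Hist rows shared at least 50% of their 100-base stretches with another gene. Hist1h2ap shared 92.2% of them, mostly with Hist1h2ao, so its counts cannot be assigned to that copy with certainty, while Hist1h1b and Hist1h4d shared 0%. Hist3h2a shared 29.8%, most often with Trim17, which is not a histone gene. Whether that touched the counts of Hist3h2a was not tested.

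The table held 16235 cells. In order of stage the libraries had 5962, 5208 and 5065 cells, with 53334740, 66239195 and 46599806 UMIs and a median of 7066.5, 11021 and 6797 UMIs per cell. Clusters built in each library without histone and cell cycle genes were named from marker lists, and 420, 630 and 654 cells stayed unnamed. Doublet calling marked 84 cells at E16.5 and 106 at P0 and did not work at E13.5, where it marked 0. There were 114 cell barcodes in 2 libraries and 1 in all 3. Globin transcripts, made in red cells, were counted in other cells too, in CPM (UMIs per 1000000 UMIs of the same cells). In order of stage they stood at 3593, 1297 and 1090 CPM in dermal-like cells and at 11977, 2561 and 1905 CPM in epithelial-like cells. Whether free RNA or doublets brought them there was not tested.

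The question put to the stages was how histone expression changed as hair follicles were induced, formed and matured. Replication-dependent transcripts were highest at E16.5 and lowest at P0, while replacement transcripts stayed nearly level. Summed over the 62 Hist rows, the level in all cells was 1337 CPM at E13.5 (71326 UMIs), 2079 CPM at E16.5 (137725 UMIs) and 588 CPM at P0 (27395 UMIs). The log2 ratio of E16.5 to E13.5 was 0.64 (0.62 to 0.65), and that of P0 to E16.5 was −1.82 (−1.84 to −1.80). Summed over the 10 replacement rows, the level was 7273, 7074 and 7634 CPM, with log2 ratios of −0.04 and 0.11. For every 100 UMIs of replacement rows there were 18.4, 29.4 and 7.70 UMIs of Hist rows in the same order.

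**Figure D1:**
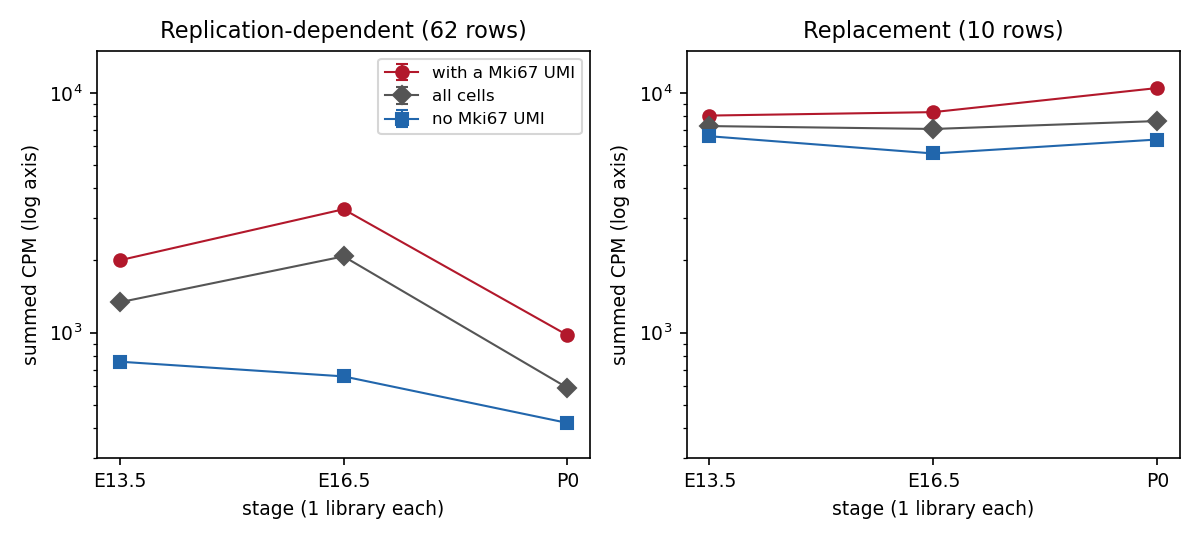
Summed CPM (log axis) of the 62 replication-dependent rows and the 10 replacement rows at each stage, in all cells and in cells with and without a Mki67 UMI. Each point is 1 library, and the 95% counting intervals are smaller than the symbols. The replication-dependent sum peaks at E16.5 in cells with Mki67 at 3271 CPM, whereas in cells without Mki67 it steps down from 756 to 656 to 419 CPM.

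Cells with a Mki67 UMI made up 37.9% of cells at E13.5 (36.6 to 39.1, exact binomial), 44.9% at E16.5 (43.5 to 46.3) and 19.3% at P0 (18.2 to 20.4), and 21.4%, 24.02% and 8.49% after every cell was thinned to 3400 UMIs. In the neural-like cells of E13.5 the share was 27.9% over all of them, 42.4% in a cluster of 269 cells and 1.94% in a cluster of 103 cells, both with Rtn1 and Elavl3 among their leading genes. No cell type that should lack Mki67 was fixed to measure background. The share thus moved with the stage totals, so the same sums were taken on either side of Mki67. In cells with Mki67 the Hist rows came to 2002, 3271 and 975 CPM, and the log2 ratios were 0.71 for E16.5 over E13.5 and −1.75 for P0 over E16.5. In cells without Mki67 they came to 756, 656 and 419 CPM, with log2 ratios of −0.20 and −0.65. The peak at E16.5 was thus seen in cells with Mki67 and not in those without, while the step down to P0 was seen in both. In cells without Mki67, 17 of 24 genes listed for G2 and mitosis were at least 2 times lower at E16.5 than at E13.5. The share over all genes was 11.5%, and the median log2 ratio was −1.15 for the list and −0.13 over all genes. The cells without Mki67 thus differed in cycle content between these libraries, so their ratio cannot be read as that of resting cells.

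A few genes carried most of the replication-dependent counts. Hist1h2ap, an H2A gene, held 42.6%, 52.0% and 24.8% of them in order of stage, and the 5 highest rows together held 74.5%, 81.6% and 66.1%. Beside Hist1h2ap, the 5 at E16.5 were the linker histone genes Hist1h1e and Hist1h1b, the H2A gene Hist1h2ae and the H2B gene Hist1h2bc, and at P0 they were Hist1h1c, Hist1h2bc, Hist3h2a and Hist3h2ba. With Hist1h2ap left out, the log2 ratios of the sum were 0.38 for E16.5 over E13.5 and −1.17 for P0 over E16.5. At the other end, 15, 12 and 22 of the 62 rows had fewer than 50 UMIs in a library, and 4 had fewer than 50 in all 3 together (14 to 35 UMIs), so nothing is said of single rows among them.

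Row by row, a difference was called when the CPM differed at least 2-fold between groups that together held at least 50 UMIs. From E13.5 to E16.5, 4 of the 55 Hist rows at that minimum were at least 2 times higher, against 8.22% of all 14935 genes, and 1 was at least 2 times lower, against 11.3% of all genes. The median log2 ratio of these Hist rows was 0.24, beside −0.13 over all genes. From E16.5 to P0, 0 of 53 Hist rows were at least 2 times higher (8.24% of 14471 genes) and 18 were at least 2 times lower (13.6% of genes), with a median of −0.50 beside −0.19. Of the 10 replacement rows, 1 was called lower in each step, H2afy2 in the first and H1fx in the second, and 0 were called higher.

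The Hist rows did not follow a single course through the stages. Several were far lower at P0 than at E16.5. Hist1h2ae read 112, 145 and 11.4 CPM, a log2 ratio of −3.66 (−3.79 to −3.54) for the second step. Hist2h2ac read 23.0, 31.9 and 2.88 CPM, with a ratio of −3.47 (−3.73 to −3.22). The H4 gene Hist1h4d read 24.7, 38.0 and 3.82 CPM, with a ratio of −3.32 (−3.54 to −3.10). In each of these the P0 library was by far the lowest of the 3. Other Hist rows were higher at P0 or nearly level. The linker gene Hist1h1c read 25.6, 48.0 and 87.4 CPM, so that P0 stood above E16.5 by 0.86 (0.80 to 0.93) on the log2 scale. Hist1h2bc read 32.5, 75.1 and 87.2 CPM, and Hist1h4i 30.2, 30.6 and 30.5 CPM.

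**Figure D2:**
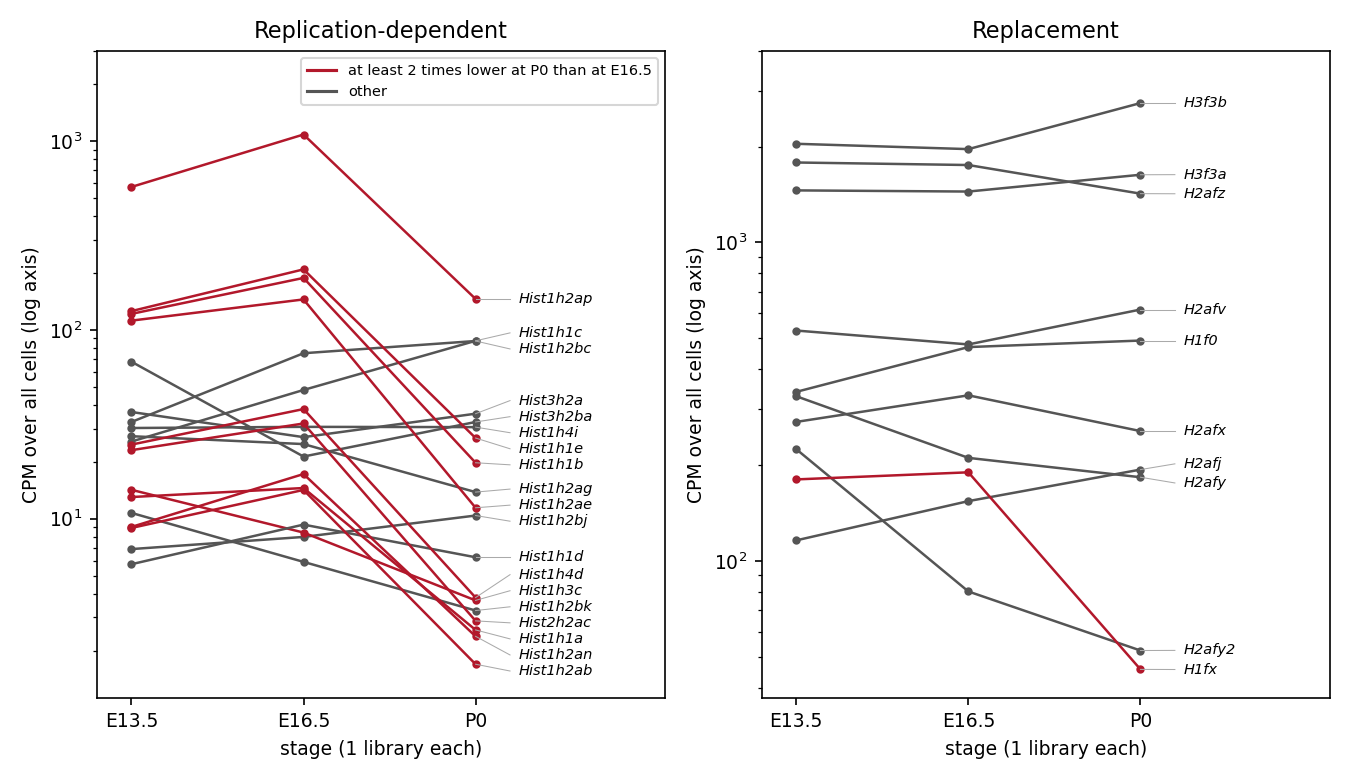
CPM over all cells (log axis) of the 19 replication-dependent rows and the 10 replacement rows with at least 1000 UMIs, at E13.5, E16.5 and P0. Each line is 1 gene over 3 libraries, and red marks genes at least 2 times lower at P0 than at E16.5. Hist1h2ap goes from 1081 to 146 CPM between those stages, whereas Hist1h1c goes from 48.0 to 87.4 CPM.

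By histone type, the 17 H2A rows made up 59.96% of replication-dependent UMIs in E13.5 skin, 65.6% in E16.5 skin and 39.1% in P0 skin, and the 16 H2B rows 10.1%, 6.29% and 25.2%. The H2A sum was 802, 1365 and 230 CPM, and the H2B sum was 135.5, 131 and 148 CPM, close to level. The 5 linker (H1) rows held 21.8%, 22.5% and 24.3%. The 12 H3 rows and the 12 H4 rows together held the small remainder, with H3 at 2.81%, 1.45% and 3.45% and H4 at 5.32%, 4.08% and 7.92%. The nucleosome contains as much H3 and H4 as H2A and H2B, so these shares of UMIs are not amounts of protein. What sets them was not tested.

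Comparing cells with and without Mki67 inside 1 library asks how far each histone gene went with detection of Mki67. Many cells with S phase transcripts had no Mki67 UMI (shares are given with the S phase bins below). The split therefore does not set cells in cycle against resting cells. The replication-dependent sum was higher in cells with Mki67 at every stage, and most so at E16.5. The log2 ratio of their sum was 1.41 (1.38 to 1.43) at E13.5, 2.32 (2.296 to 2.339) at E16.5 and 1.22 (1.18 to 1.25) at P0. The replacement sum gave 0.29, 0.57 and 0.71, from 8045 against 6597 CPM, 8317 against 5589 CPM and 10485 against 6392 CPM. Cells with more UMIs show Mki67 more often, and after thinning to 3400 UMIs the ratio of the Hist rows was 0.77, 1.60 and 1.24, so that E13.5 then stood below P0.

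At E13.5, 14 of the 47 Hist rows at the minimum were at least 2 times higher in cells with Mki67, beside 1.72% of all genes. At E16.5 the count was 36 of 50, beside 2.74%, and at P0 34 of 40, beside 3.46%. Thinned to 3400 UMIs, the counts were 5, 22 and 11. Thinning also leaves fewer UMIs in each row, and the shares of all genes here are for cells not thinned, so these counts are not like for like. The counts of Hist rows at least 2 times lower were 0, 0 and 0 (1, 0 and 0 thinned), beside 2.26%, 1.56% and 7.99% of all genes. The median log2 ratio over the Hist rows was 0.81, 1.48 and 1.60, and over all genes it lay between −0.04 and −0.01. Of the 10 replacement rows, 1, 2 and 4 were at least 2 times higher and 0 were lower.

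**Figure D3:**
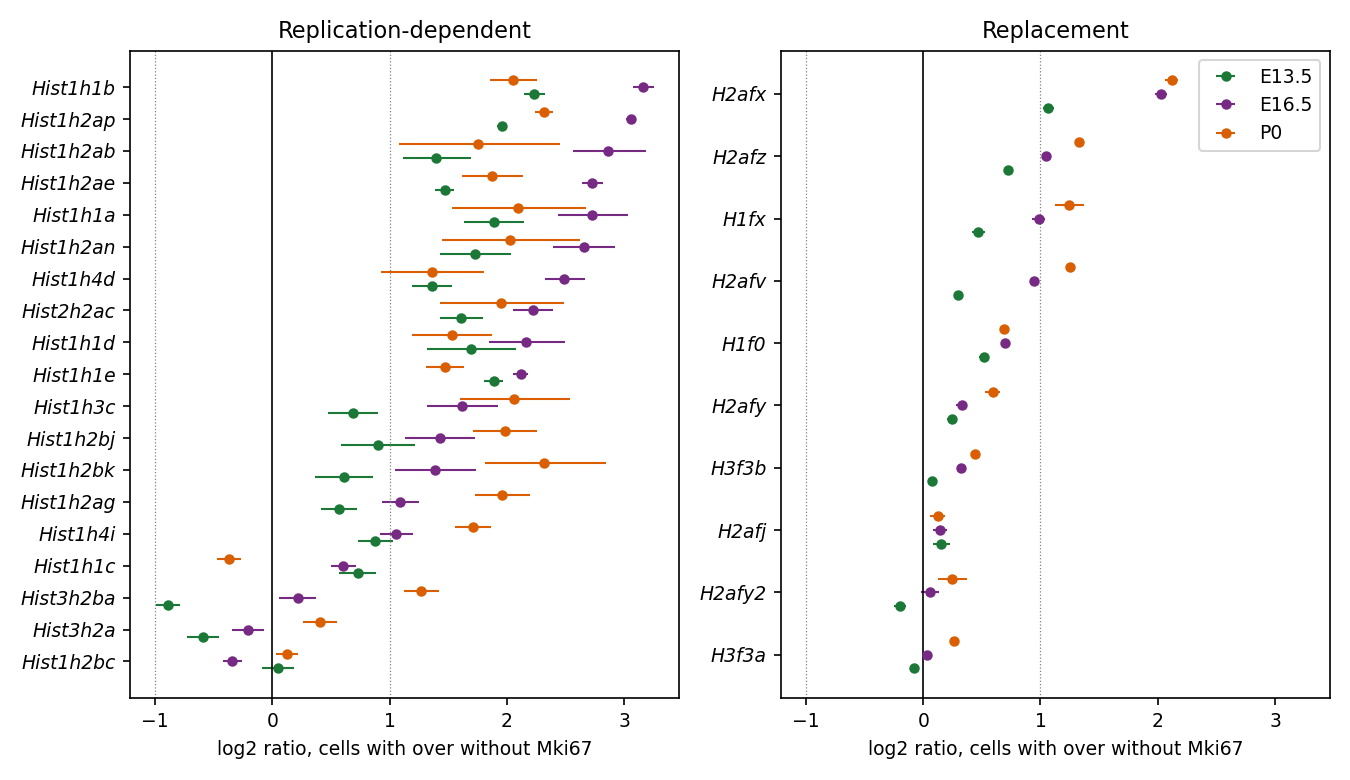
Log2 ratio of CPM in cells with a Mki67 UMI over cells without one, for the 19 replication-dependent and 10 replacement rows with at least 1000 UMIs, in each library. Points are single libraries, bars are 95% counting intervals, and dotted lines mark a 2-fold difference. Hist1h1b, Hist1h2ap and Hist1h2ae lie to the right at all 3 stages, whereas Hist3h2ba moves from −0.89 at E13.5 to 1.27 at P0.

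Among the linker histone genes, which encode the H1 proteins that bind DNA between nucleosomes, Hist1h1b showed the widest gap at E16.5. It read 209 CPM with Mki67 and 44.5 without at E13.5, 316 and 35.3 at E16.5, and 42.0 and 10.1 at P0, for log2 ratios of 2.23, 3.16 (3.07 to 3.25) and 2.05. Hist1h1e read 205 and 55.6, 321 and 74.2, and 48.2 and 17.4 CPM, with ratios of 1.89, 2.12 and 1.47. Both genes were higher with Mki67 at every stage, and the intervals of the E16.5 ratio lay above those of the other 2 stages for both. Hist1h1c behaved otherwise. Its values were 32.4 and 19.6 CPM at E13.5, 56.9 and 37.4 at E16.5, and 72.6 and 93.8 at P0, so that it was higher with Mki67 in fetal skin (0.73 and 0.60) and lower in newborn skin (−0.37, −0.47 to −0.27). Thinned to 3400 UMIs, the P0 ratio was 0.08 (−0.19 to 0.33), so that its direction at P0 depended on depth.

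Promoters of 4 linker genes are printed to show which short elements Hist1h1b, Hist1h1e and Hist1h1c share and that H1f0 has none of them. Sequences are from RefSeq (GRCm38.p6), end at the annotated start of transcription, and have 150 bases each, read along the strand of the gene. Capitals mark matches on either strand to AAACACA, known as the H1 box, to the element CCAAT, to the element TATAAA and to the octamer ATTTGCAT, and none of these contains another.
Hist1h1b, chr13:21780626-21780775, minus strand: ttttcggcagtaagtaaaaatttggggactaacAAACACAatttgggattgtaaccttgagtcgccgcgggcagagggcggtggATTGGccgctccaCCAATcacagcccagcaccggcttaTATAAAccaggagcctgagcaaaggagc
Hist1h1e, chr13:23622559-23622708, minus strand: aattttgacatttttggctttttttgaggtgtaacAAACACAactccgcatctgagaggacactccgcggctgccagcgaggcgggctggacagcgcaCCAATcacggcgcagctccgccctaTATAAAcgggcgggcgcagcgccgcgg
Hist1h1c, chr13:23738657-23738806, plus strand: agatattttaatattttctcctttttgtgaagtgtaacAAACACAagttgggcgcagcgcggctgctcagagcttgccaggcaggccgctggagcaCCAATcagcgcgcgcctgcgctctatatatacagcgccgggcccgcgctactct
H1f0, chr15:79028062-79028211, plus strand: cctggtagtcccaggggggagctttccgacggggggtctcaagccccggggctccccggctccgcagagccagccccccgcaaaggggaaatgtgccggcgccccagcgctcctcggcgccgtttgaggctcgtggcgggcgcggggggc

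Over the 250 bases before the start, AAACACA was found in 4 of the 5 linker genes with the Hist prefix, against 6.25% of 32851 RefSeq promoters. Hist1h1c had AAACACA and CCAAT but no TATAAA. H1f0 had none of the 4 motifs in this window, which ends before the start of its GENCODE model. Promoters were matched for 52 of the 62 Hist rows, and 42 of those held CCAAT (33.9% of all promoters) and 27 held TATAAA (12.4%). The octamer was found in 6 of 15 H2A and 4 of 11 H2B promoters, in 0 of 5 H1, 0 of 10 H3 and 0 of 11 H4 promoters, and in 1.60% of all promoters. A match is a description of letters and says nothing of binding.

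Core histones of the H2A type gave the largest sums. Hist1h2ap read 944 CPM with Mki67 and 243 without at E13.5, 1804 and 217 at E16.5, and 328 and 66.0 at P0, for log2 ratios of 1.96, 3.05 (3.02 to 3.09) and 2.31. Hist1h2ae read 170 and 61.2, 236 and 35.6, and 23.1 and 6.31 CPM, for ratios of 1.47, 2.73 and 1.87. Hist2h2ac, from the smaller cluster on chromosome 3, had ratios of 1.61, 2.22 and 1.95. In all 3 genes the level without Mki67 was lower at E16.5 than at E13.5, although for Hist2h2ac the interval of that ratio held 0 (−0.37 to 0.08), and the level with Mki67 was higher.

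The course of these genes from E13.5 to E16.5 thus depended on which cells were summed. In cells with Mki67 the log2 ratio of E16.5 over E13.5 was 0.93 for Hist1h2ap, 0.60 for Hist1h1b, 0.48 for Hist1h2ae and 0.73 for Hist1h4d. In cells without Mki67 it was −0.16, −0.33, −0.78 and −0.39 for the same genes, with no interval holding 0. In those cells the 24 genes of G2 and mitosis had a median of −1.15, so these ratios cannot be read as a fall in resting cells. Hist1h1e was higher at E16.5 on both sides, by 0.65 and 0.42. From E16.5 to P0, the 2 sides had the same sign, with ratios of −2.46 and −1.72 for Hist1h2ap and −2.74 and −2.09 for Hist1h1e.

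The H2B sum differed less by Mki67 than the H2A sum. It was 125 CPM with Mki67 and 145 without at E13.5, 138 and 122 at E16.5, and 202 and 125 at P0, so that the log2 ratio was −0.22, 0.17 and 0.70, against 1.65, 2.79 and 1.91 for H2A. Hist3h2ba and Hist1h2bc held 74.0%, 73.8% and 80.7% of H2B UMIs. The other 14 H2B rows, set apart after these values were seen, summed to 45.0 CPM with Mki67 and 26.8 without at E13.5, 48.2 and 17.8 at E16.5, and 54.8 and 17.2 at P0, with ratios of 0.75, 1.44 and 1.68. Of the H2B rows at the minimum, 1 of 13, 10 of 14 and 7 of 9 were called higher with Mki67, beside 1.72%, 2.74% and 3.46% of all genes. The 7 at P0 include Hist3h2ba. Hist1h2bc, the main H2B row at E16.5, read 33.1 and 32.0 CPM at E13.5, 66.9 and 84.9 at E16.5, and 92.5 and 84.9 at P0, with ratios of 0.05, −0.34 and 0.13, the last turning to −0.24 with Top2a and to −0.15 with Pcna in place of Mki67. At E16.5 it was lower with Mki67 in 7 of 7 lineages, and the interval lay below 0 in 6. Hist1h2bj read 9.16 and 4.92, 11.2 and 4.17, and 21.6 and 5.48 CPM. Its ratios of 0.90, 1.42 and 1.98 were higher at each later stage, though the intervals of neighbouring stages overlapped.

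H3 and H4 rows had lower counts but the same general direction. The H3 sum was 43.8 CPM with Mki67 and 32.1 without at E13.5, 42.4 and 15.3 at E16.5, and 38.1 and 12.5 at P0, and the H4 sum was 96.6 and 48.9, 122 and 40.6, and 84.0 and 30.3 CPM. Hist1h3c had log2 ratios of 0.69, 1.62 and 2.06, and Hist1h4d of 1.36, 2.49 and 1.36. Hist1h4i, whose level over all cells was nearly the same in the 3 libraries, still had ratios of 0.88, 1.05 and 1.71, from 39.9 and 21.7, 40.1 and 19.3, and 59.1 and 18.1 CPM.

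A pair of genes that lie close together on chromosome 11, Hist3h2a and Hist3h2ba, were lower with Mki67 in E13.5 skin, where 44 of 47 Hist rows were higher. The third row below 0 was Hist1h4n, with 18 and 35 UMIs and an interval that held 0 (−1.67 to 0.09). Hist3h2ba read 46.5 CPM with Mki67 and 86.3 without at E13.5, a log2 ratio of −0.89 (−0.99 to −0.79), then 22.7 and 19.6 at E16.5 and 54.8 and 22.8 at P0. Hist3h2a read 28.9 and 43.5, 25.2 and 29.1, and 43.3 and 32.7 CPM, for ratios of −0.59, −0.21 and 0.40. Thinned to 3400 UMIs, the Hist3h2a ratio at P0 was −0.10, and with Pcna in place of Mki67 the Hist3h2ba ratio at E16.5 was −0.40. Much of the E13.5 difference lay in neural-like cells, where Hist3h2ba read 198 CPM with Mki67 and 587 without and Hist3h2a 75.8 and 193, against 32.8 and 42.7, and 19.9 and 25.5, in dermal-like cells. The neural-like clusters of 269, 103 and 55 cells had Mki67 in 42.4%, 1.94% and 5.45% of cells. Mki67 and neural cluster therefore cannot be told apart in those values. Without the neural-like cells the E13.5 ratios were −0.38 (−0.50 to −0.25) and −0.31 (−0.46 to −0.16), so that a smaller difference of the same sign was left. Hist3h2ba was lower with Mki67 in 9 of 10 lineages at E13.5, with an interval below 0 in 4.

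Replacement genes ranged widely in their ratio by Mki67. The H3.3 genes H3f3a and H3f3b, which encode the same protein, were among the most abundant histone rows at 1457, 1445 and 1632 CPM and at 2041, 1964 and 2740 CPM. Their log2 ratios by Mki67 were −0.08, 0.03 and 0.26 for H3f3a and 0.08, 0.32 and 0.44 for H3f3b. In neural-like cells at E13.5, H3f3a read 1599 CPM with Mki67 and 2505 without, and H3f3b 2475 and 3561, and without those cells the H3f3a ratio was −0.01 (−0.03 to 0.01). Comparisons of level between genes here rest on counts of transcript 3′ ends, which do not grow with transcript length.

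H2afx, which encodes the variant phosphorylated at DNA breaks and is the replacement gene with a hairpin, read 379 CPM with Mki67 and 181 without at E13.5, 505 and 124 at E16.5, and 551 and 127 at P0, with log2 ratios of 1.07, 2.03 and 2.12. With Pcna in place of Mki67 these were −0.106, −0.035 and 0.78. H2afz and H2afv encode the H2A.Z proteins, which mark promoters among other sites. H2afz read 2258 and 1368, 2290 and 1106, and 2454 and 975 CPM, with ratios of 0.72, 1.05 and 1.33, and H2afv read 586 and 479, 612 and 319, and 1033 and 434 CPM, with ratios of 0.29, 0.94 and 1.25 (−0.12, −0.13 and 0.58 with Pcna). Each of the 3 genes had a larger ratio by Mki67 at each later stage. For H2afx the intervals at E16.5 (1.98 to 2.08) and P0 (2.06 to 2.17) overlapped.

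The remaining replacement genes had courses of their own. H2afy2, which encodes a macroH2A protein linked to silent chromatin, read 224, 80.2 and 52.3 CPM in order of stage, with a log2 ratio of −1.48 (−1.53 to −1.44) in the first step. Its sister gene H2afy read 329, 211 and 183 CPM. The linker variant H1fx read 180, 190 and 45.6 CPM, with a ratio of −2.06 (−2.12 to −1.99) in the second step, and −1.68 and −1.94 with and without Mki67. H1f0, the linker variant that accumulates in differentiated cells, read 340, 469 and 492 CPM, yet it was higher with Mki67 at each stage, at 405 and 282, 568 and 351, and 669 and 415 CPM. With Pcna in place of Mki67 its ratio was −0.035 at E13.5 and −0.065 at E16.5. H2afj read 116, 154 and 194 CPM and had ratios by Mki67 of 0.15, 0.14 and 0.12. The antisense row H3f3aos had 39, 43 and 28 UMIs.

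To set the histone rows against S phase rather than against Mki67, each cell was thinned to 3400 UMIs and placed by its UMIs of 24 S phase genes. The Hist rows were higher in each bin with more S phase UMIs, though not beyond counting error at every step. Intervals overlapped between 0 and 1 to 2 UMIs at E13.5, and between 6 to 9 and 10 or more at P0. At E13.5 the sum of the Hist rows was 733 CPM in cells with 0 S phase UMIs, 764 with 1 to 2, 935 with 3 to 5, 1206 with 6 to 9 and 1922 with 10 or more. At E16.5 the same bins held 685, 868, 1484, 2676 and 3692 CPM, and at P0 310, 389, 606, 901 and 909 CPM. From the lowest to the highest bin, the Hist rows thus differed most at E16.5, and in the top bin the P0 level stood below that of both fetal stages. The replacement sum in the lowest and highest bin was 7594 and 7291 CPM at E13.5, 6500 and 7318 at E16.5, and 5420 and 10064 at P0, so the replacement rows differed most at P0. In the top bin 23.4%, 29.6% and 18.4% of the thinned cells had a Mki67 UMI in order of stage, against 10.5%, 15.8% and 2.90% in the lowest. Most cells of the top bin thus had no Mki67 UMI at that depth.

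**Figure D4:**
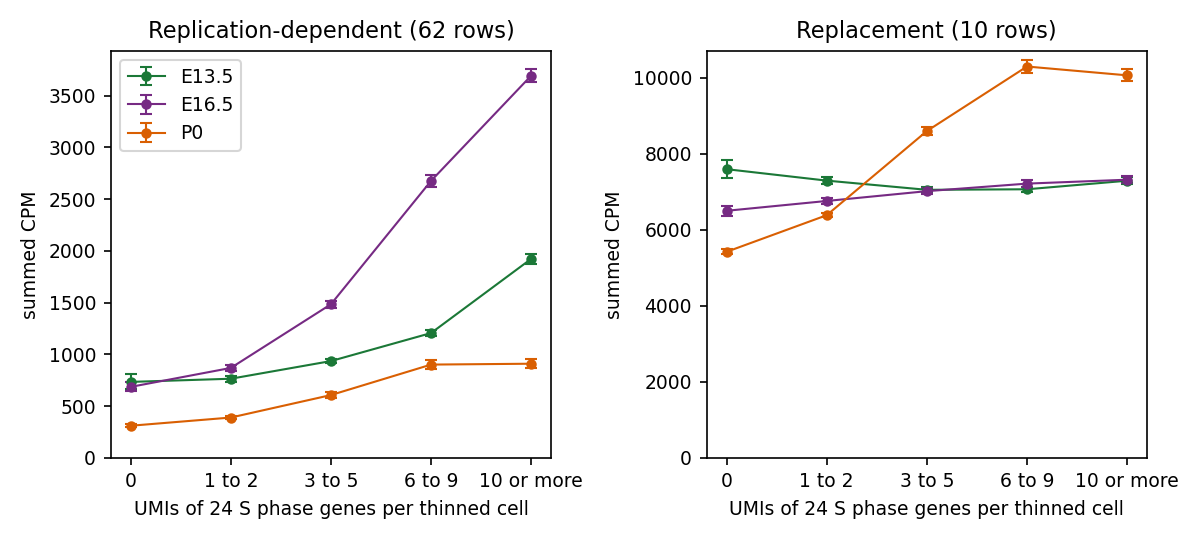
Summed CPM of the 62 replication-dependent and the 10 replacement rows in cells thinned to 3400 UMIs and binned by their UMIs of 24 S phase genes, for each stage. Error bars are 95% counting intervals. The replication-dependent sum in the top bin is 3692 CPM at E16.5, against 1922 at E13.5 and 909 at P0.

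Across lineages, cells with Mki67 held more replication-dependent transcripts than cells without it in each named lineage at each stage, from 10 lineages at E13.5 to 7 at E16.5 and 7 at P0. Dermal-like cells, fibroblasts and their progenitors marked by collagen genes, read 2402 CPM with Mki67 and 643 without at E13.5, 4091 and 626 at E16.5, and 1219 and 311 at P0, with log2 ratios of 1.90, 2.71 and 1.97. Epithelial-like cells, marked by keratins, read 1790 and 889, 2543 and 843, and 971 and 605 CPM, with ratios of 1.01, 1.59 and 0.68. Among cells with Mki67 the epithelial level was below the dermal one at each stage, by log2 ratios of −0.42, −0.69 and −0.33. Among cells without Mki67 it was above, by 0.47, 0.43 and 0.96 in order of stage.

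The lower level at P0 than at E16.5 was seen in all 7 lineages named at both stages. The ratio over all cells was lowest in dermal-like cells, at −2.39 (−2.42 to −2.35) on the log2 scale, next to −2.32 in pericyte-like cells. In dermal-like cells it was −1.75 in those with Mki67 and −1.01 in those without. Epithelial-like cells had ratios of −1.32, −1.39 and −0.48. Among cells with Mki67, the lowest ratio was in melanocyte-like cells, at 4227 CPM at E16.5 and 930 at P0 (−2.18, −2.31 to −2.06), though from 25 and 38 cells. At P0 the cells with Mki67 were as few as 17 among Schwann-like and 13 among immune-like cells. Endothelial-like cells had the lowest levels with Mki67 in the E16.5 and P0 libraries, 1974 and 676 CPM. The share of cells with Mki67 was 44.5% and 13.0% in dermal-like cells at those stages and 54.4% and 34.1% in epithelial-like cells, which were deeper (medians of 10838 and 5979.5 against 13234.5 and 10009 UMIs). Thinned to 3400 UMIs, the shares were 25.7% and 7.58% against 26.2% and 12.1%. All these values leave out unnamed clusters. Among those led by markers of another list, a cluster of 403 cells at E16.5 scored highest for the dermal list (12.7% of cells with Mki67, not thinned). At P0 a cluster of 231 cells scored highest for the dermal list (4.33%) and a cluster of 255 cells for the epithelial list (11.8%).

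**Figure D5:**
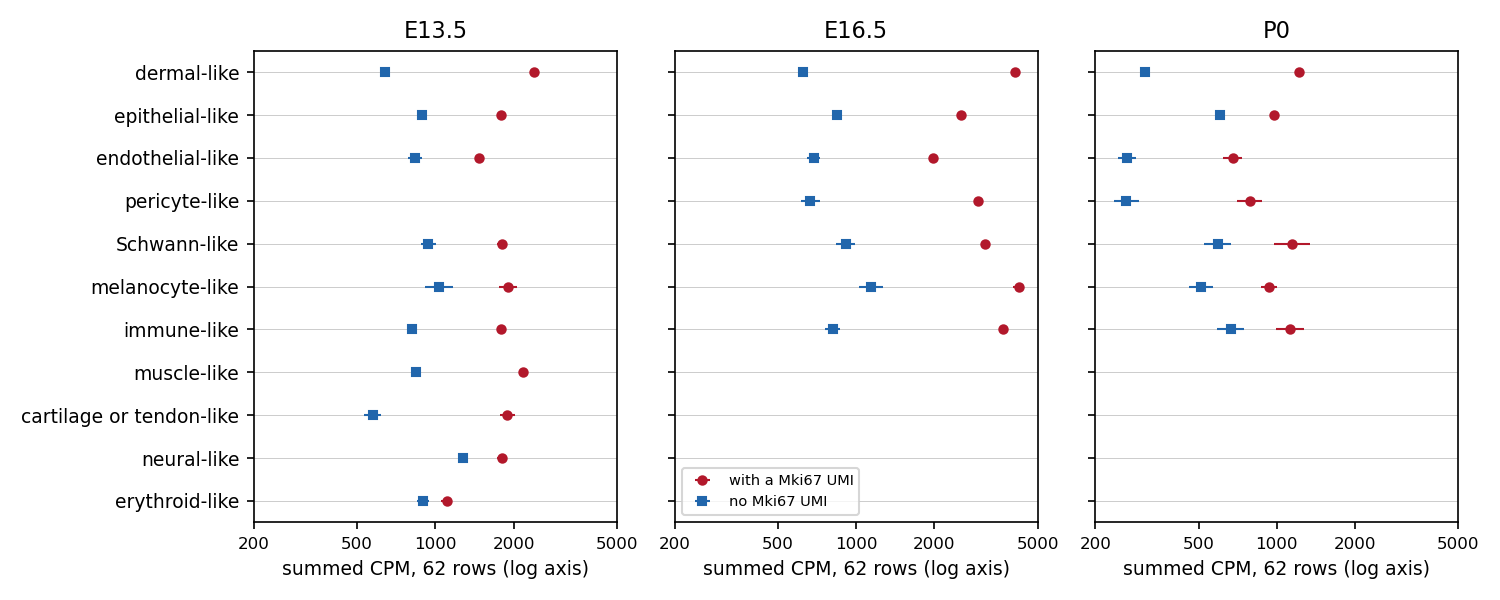
Summed CPM (log axis) of the 62 replication-dependent rows in cells with and without a Mki67 UMI, by named lineage and stage, for lineages with at least 50 cells. Each point is 1 lineage in 1 library and bars are 95% counting intervals. The gap between the pair is widest in dermal-like cells at E16.5, at 4091 against 626 CPM, and narrowest in erythroid-like cells at E13.5, at 1104 against 896 CPM.

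Another 4 lineages were named at E13.5 alone. Erythroid-like cells, marked by globins, differed least by Mki67 (1104 and 896 CPM, a log2 ratio of 0.30). Neural-like cells had the highest level without Mki67, 1277 CPM, against 1810 with it, and with Hist1h2ap left out their log2 ratio was 0.00 (−0.10 to 0.10). Much of the level without Mki67 came from Hist3h2ba at 587 CPM and Hist3h2a at 193, against 198 and 75.8 with it. Both rows are in the sum without Hist1h2ap, so neither value describes the Hist rows as a class. Muscle-like cells read 2174 and 841 CPM, and cartilage or tendon-like cells 1895 and 574. The latter were 1 cluster of 183 cells with the cartilage genes Col9a1 and Col2a1 among its leading genes. A cluster of 254 cells with the tendon genes Tnmd and Scx among its leading genes stayed unnamed, so the value does not cover it. Neural-like cells were also the single lineage at E13.5 in which the replacement sum was lower with Mki67, at 8170 against 9479 CPM.

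Single genes kept their direction across lineages to different degrees. Hist1h1b, Hist1h2ap and Hist1h1e were higher with Mki67 in 10 of 10 lineages at E13.5, 7 of 7 at E16.5 and 7 of 7 at P0, and so were H2afz and H2afx. Hist1h1c was higher in 8 of 10, 4 of 7 and 2 of 7. At P0 Hist1h1c read 69.9 CPM with Mki67 and 116 without in epithelial-like cells, and 62.4 and 77.3 in dermal-like cells. Its highest level among lineages was in Schwann-like cells at P0, glial precursors of the nerves, with 211 CPM over all of them from 127 UMIs. H2afj was higher in epithelial-like than in dermal-like cells in each library, at 243 and 81.6 CPM, 235 and 116 CPM, and 260 and 126 CPM. H1fx was lowest in immune-like cells, at 85.2, 29.0 and 14.9 CPM, the last from 10 UMIs.

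Few genes that make, process and carry histones were called by Mki67, and the shares over all genes were small as well, at 1.72%, 2.74% and 3.46% higher in order of stage. Of 12 genes for histone mRNA synthesis and 3′ processing, 0 were at least 2 times higher with Mki67 at any stage among those at the minimum. Slbp, which encodes the protein that binds the stem-loop, read 203 CPM with Mki67 and 171 without at E13.5, 187 and 140 at E16.5, and 160 and 93.5 at P0. From E16.5 to P0, 2 of the 12 were at least 2 times lower, beside 13.6% of all genes: Npat, which encodes a coactivator of histone gene transcription, at 21.5 and 7.17 CPM, and Casp8ap2, whose protein is needed for histone expression in S phase, at 47.2 and 14.6 CPM. Of 11 replication-coupled chaperone genes, Asf1b, whose protein hands H3 and H4 to the replication fork, was the 1 called higher at E13.5 and at E16.5 (69.5 and 30.8 CPM, 89.4 and 23.6 CPM), and at P0 it was joined by Chaf1a. Of 12 genes for chaperones and loaders of replacement histones, 0, 0 and 1 were called higher, the 1 being Anp32e at P0 (215 and 84.5 CPM), whose protein removes H2A.Z. Of 8 general chaperone genes, 0 were called higher at any stage.

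Lists of cycle genes gave the range to compare with. All 24 genes of the list for G2 and mitosis were at least 2 times higher with Mki67 in each library, with median log2 ratios of 1.64, 2.82 and 2.22. Of the 24 S phase genes, 0, 3 and 6 were, with medians of 0.24, 0.18 and 0.66. From E16.5 to P0, 7 of the 24 genes of G2 and mitosis and 6 of the 24 S phase genes were at least 2 times lower, with 18 of 53 Hist rows and 13.6% of all genes. Of 8 genes of cell cycle exit, 4 were at least 2 times higher at E16.5 than at E13.5 (8.22% of all genes), among them Cdkn1a at 37.2 CPM at E13.5 and 76.9 at E16.5. From E16.5 to P0, 1 of the 8 was called higher (8.24% of all genes), Btg2, at 78.1 and 289.7 CPM, and 1 lower (13.6%), Cdkn1c, at 1346 and 395 CPM.

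Likeness to the Hist rows was measured over 39 groups of lineage, stage and Mki67. Pearson's r of log2(CPM + 10) with the summed Hist rows was 0.92 for Casc5, which encodes a kinetochore protein, 0.90 for Kif14, which encodes a mitotic kinesin, and 0.89 for Atad2, Kntc1, C330027C09Rik, Top2a and Kif15, followed by Hmmr, Ercc6l and Kif4 at 0.88. For Mki67, which defined the groups, it was 0.81, for H2afz 0.79 and for H2afx 0.77. Single Hist rows, set against the sum of the other Hist rows, ranged from 0.94 for Hist1h1b to 0.02 for Hist3h2ba, −0.17 for Hist1h1c, −0.20 for Hist3h2a and −0.31 for Hist1h2bc. The groups share 3 libraries and differ in depth, so these values are descriptions.

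Rows were also set apart by the length of the gene model past the hairpin. Rows whose models ran more than 100 bases past the hairpin summed to 450, 552 and 251 CPM in order of stage, those with at most 100 bases to 690, 1205 and 208, and those with no hairpin in the model to 196, 320 and 127. The median log2 ratio of P0 over E16.5 was −0.49, −0.50 and −0.53 in the 3 sets, over 20, 19 and 13 rows. Other comparisons differed more between the sets. The median of E16.5 over E13.5 was 0.54, 0.04 and 0.24. By Mki67 it was 0.83, 0.71 and 0.82 at E13.5, 1.17, 1.52 and 2.23 at E16.5, and 1.41, 1.83 and 2.05 at P0. The models are those of GENCODE vM21, which may not be those used for counting. A model with no hairpin may stop before it, so that set is not a class of genes without a stem-loop.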

How the data were processed

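Single cells of mouse back skin were captured with a droplet 3′ kit at E13.5, E16.5 and P0, with 1 library a stage from pooled animals. The authors aligned and counted the reads with Cell Ranger 2.2.0 on mm10 (submitters' processing notes), kept cells with at least 1750 genes, and deposited values as natural log of 1 plus UMIs per 10000. UMIs were recovered from those steps, and 48197283 of 48197283 values above 0 were whole within 0.001. The table holds 16235 cells, all above that gene filter, where the design text gives 15086. All sample columns were used.

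Counts were summed over cells and divided by the total of the same cells (CPM). Cells of each library were clustered (scanpy 1.11.5, leidenalg 0.10.2, 2000 variable genes, 30 principal components, 15 neighbours, resolution 1), and clusters were named from marker lists. Clusters of under 50 cells, of called doublets for the most part, or with more markers of another list among their leading genes stayed unnamed. Members with at least 50 UMIs could be named with their values, as could genes of the pathway lists and the 10 other genes most like the summed Hist rows. A row counted as higher or lower where it had at least 50 UMIs over both groups and a ratio of at least 2, whatever its interval. Intervals (exact Poisson for levels, exact conditional binomial for ratios) cover counting error only. With 1 library a stage there is no test between stages, so stage cannot be told apart from library or, at P0, from dissociation. Doublets were called with a simulated-doublet score, which marked 0 cells at E13.5 and so did not work there. Ratios were checked on simulated counts. The members and lists were chosen with earlier results of these data known. Other depths, cell filters, cycle markers and cluster resolutions were tried. Totals over all cells kept every cell, called doublets included. Python 3.11.15, numpy 2.4.6, scipy 1.17.1, pandas 2.3.3 and matplotlib 3.10.9 were used.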

Additional observations from a re-analysis of the deposited data

Results flagged for a closer look

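Some member genes had log2 ratios of cells with over cells without Mki67 that took different signs in different libraries, with intervals on opposite sides of 0. The difference between stages was not tested, since each stage was 1 library. In order of stage, Hist3h2ba had −0.89, 0.21 and 1.27, Hist3h2a had −0.59, −0.21 and 0.40, and Hist1h1c had 0.73, 0.60 and −0.37. Hist1h2bc had −0.34 at E16.5 and 0.13 at P0. H2afy2 had −0.20 at E13.5 and 0.25 at P0. H3f3a had −0.075, 0.034 and 0.26 in order of stage.

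Some of these signs changed with the cells taken. With cells thinned to 3400 UMIs, Hist3h2a at P0 was −0.10 (−0.55 to 0.32) and Hist1h1c at P0 was 0.08 (−0.19 to 0.33), both with intervals that held 0. Hist1h2bc at P0 was −0.24 with Top2a in place of Mki67. Hist3h2ba at E16.5 was −0.40 with Pcna in place of Mki67.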

How the results depend on the processing

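Of 723 values under alternatives, 228 stayed within the counting interval (for counts of rows, within 1.5 times), 492 moved and 3 values past the threshold turned sign. Values under the threshold that took the other sign are among those that moved. The replication-dependent ratio of E16.5 over E13.5 (0.64) was 0.54 in cells with at least 2500 genes, 0.68 as a mean over cells, 0.62 without genes over 1% of the total and 0.68 with cells thinned to 3400 UMIs. That of P0 over E16.5 (−1.82) was −1.56 in cells with at least 2500 genes and −1.87 both as a mean over cells and thinned. The ratio by Mki67 at E13.5 (1.41) was 1.61 with at least 2500 genes, 0.77 thinned, 1.65 with Top2a and 0.82 with Pcna in place of Mki67, 1.69 with at least 2 Mki67 UMIs and 1.13 as a mean over cells. At E16.5 (2.32) it was 1.60 thinned, 2.61 with Top2a, 1.27 with Pcna, 2.54 with at least 2 UMIs and 2.38 as a mean. At P0 (1.22) it was 0.82 with at least 2500 genes, 1.51 with Top2a, 0.85 with Pcna, 1.26 with at least 2 UMIs and 1.496 as a mean. Epithelial-like over dermal-like cells with Mki67 was −0.54 and −0.50 at resolutions 0.5 and 2 at E13.5, −0.64 thinned and −0.59 as a mean. At E16.5 it was −0.72 and −0.66 at those resolutions and −0.61 with small or other-led clusters kept. At P0 it was −0.20 both thinned and as a mean.

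Counts of replication-dependent rows higher with Mki67 were 5 at E13.5 both thinned and with Pcna, with 1 row lower when thinned. At E16.5 they were 22 thinned, 16 with Pcna and 22 with at least 200 UMIs, and at P0 they were 11 thinned and 10 with at least 200 UMIs. Thinning leaves fewer UMIs in each row, so the thinned counts are not like for like with the main ones. From E13.5 to E16.5, 2 rows were higher with at least 200 UMIs. In cells without Mki67, 1 of 39 was higher in that step and 7 were lower, beside 7.92% and 11.5% of all genes. From E16.5 to P0, 2 of 48 rows were higher and 11 lower in cells with Mki67, beside 6.31% and 16.1% of all genes. In cells without Mki67, 2 of 39 were higher and 14 lower, beside 8.06% and 11.8%. With Pcna in place of Mki67, the replacement ratio of E16.5 over E13.5 within the marked cells turned from 0.048 to −0.039, and H2afx turned to −0.106 at E13.5 and −0.035 at E16.5. The cause was not tested for any of these. The alternatives with small or other-led clusters kept, without neural-like cells, with dermal-like cells alone, and the Mki67, Top2a, Pcna, thinned and mean settings of stage totals were chosen after seeing the data. No paired analysis was possible because each group was 1 library, and no replicate could be left out. Rows under the 50 UMI minimum had no ratio at this depth.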
